A study of Homo sapiens with 6 samples.

Results

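Integrins and laminins were examined in the human line SKOV-3, which was established from an ovarian cancer. The members were all array probes whose single platform gene symbol names an integrin alpha or beta subunit or a laminin chain, with integrin-binding proteins left out. This gave 37 of the 20043 genes named on the array, with 58 of its 47314 probes: 42 probes of 27 integrin genes and 16 probes of 10 laminin genes. The rule uses names only, and it was set with earlier results of these data known. ITGBL1 falls under the naming rule, although it encodes a secreted protein that resembles beta subunits rather than a subunit of a pair. The control cells had received scramble siRNA (siCtrl, 3 arrays) and the others siRNA against HBO1 (siHBO1, 3 arrays), and total RNA was taken at 48 h in both groups and read on Illumina bead arrays. KAT7 encodes HBO1, an enzyme that acetylates histones, and the series asks what role it has in this line. The 6 arrays come from 1 cell line, both groups were transfected, and the labels do not say that the numbered replicates were separate cultures, so p-values measure the spread between these arrays, which may be technical. The arrays read RNA of whole cultures, in which fewer cells with a transcript and less transcript per cell cannot be told apart.

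Integrins are cell surface receptors made of 1 alpha and 1 beta subunit. They bind extracellular matrix proteins or partner cells outside the cell and link through talin, kindlin and vinculin to actin inside it. Laminins are secreted trimers of an alpha, a beta and a gamma chain, and are the main adhesive proteins of basement membranes. In ovarian cancer, cells spread over the lining of the peritoneal cavity, where integrins that bind fibronectin, collagen and laminin are known for their part in attachment.

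KAT7, the gene targeted, had log2 values of 5.93, 6.49 and 6.45 on siCtrl 1 to 3 and of 4.77, 5.22 and 5.45 on siHBO1 1 to 3. The groups did not overlap, the log2 change was -1.14 (SE 0.25, limma adjusted p 0.999), and the p of an exact two-sided permutation test was 0.1, which is the lowest this design can reach. The KAT7 probe passed a detection p under 0.05 on 3 siCtrl arrays and on 1 siHBO1 array, so the size of its change depends on the background correction (-0.36 without it). Between 42.2% and 44.3% of probes were detected per array. Of the 12 markers of SKOV-3 and of epithelium, 8 were detected on all 3 siCtrl arrays, ERBB2, KRT7, KRT8, KRT18, KRT19, EPCAM, MSLN and PAX8, and CDH1, GRB7, MUC16 and WT1 were not.

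A gene was called detected in a group when at least 1 of its probes had a detection p under 0.01 on all 3 arrays. The detection p compares a probe with the negative control beads of its array. By this rule 22 of the 37 member genes were detected in siCtrl, 11 of 18 alpha subunits, 5 of 8 beta subunits and 6 of 10 laminin chains. Of the member probes 53.4% were detected in siCtrl, against 34.8% of all probes. All probes include 17196 without a gene symbol, whereas every member probe has one, so the 2 shares are of unlike sets. By gene, 26 of the 37 members had a probe at a detection p under 0.05 on 3 or more of the 6 arrays. The same held for 11917 of the 20043 genes named on the array. In siHBO1 20 member genes were detected, 19 of them in both groups. The 3 genes detected in siCtrl but not on every siHBO1 array were ITGA9 (1 of 3 siHBO1 arrays), ITGA11 (2 of 3) and ITGB3 (2 of 3), whose probes were dim in both groups. LAMC3 was detected on 2 siCtrl and 3 siHBO1 arrays. Levels are given below per probe and are not set against those of other probes, since probes differ in how strongly they bind.

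Among known pairs, 14 of 24 had both subunit genes detected in siCtrl. ITGB1, the subunit shared by the largest number of known pairs, was detected with ITGA1, ITGA2, ITGA10 and ITGA11, partners for collagen, with ITGA3 and ITGA6, partners for laminin, and with ITGA5 and ITGAV, partners for fibronectin and other ligands with an arginine-glycine-aspartate motif. It was also detected with ITGA4 and ITGA9. ITGAV further had ITGB3 and ITGB5 as detected partners, and ITGB7 had ITGA4 and ITGAE. ITGB4, which pairs with ITGA6 in the hemidesmosomes of epithelia, was detected on 0 of 3 siCtrl arrays by each of its 4 probes, as were ITGB6 and ITGB8, further partners of ITGAV. In siHBO1 11 pairs had both genes detected, and the 3 that differed involve the dim ITGA9, ITGA11 and ITGB3. At a detection p under 0.05 the counts were 14 in siCtrl and 15 in siHBO1, so the lower siHBO1 count goes with the 0.01 limit.

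**Figure D1:**
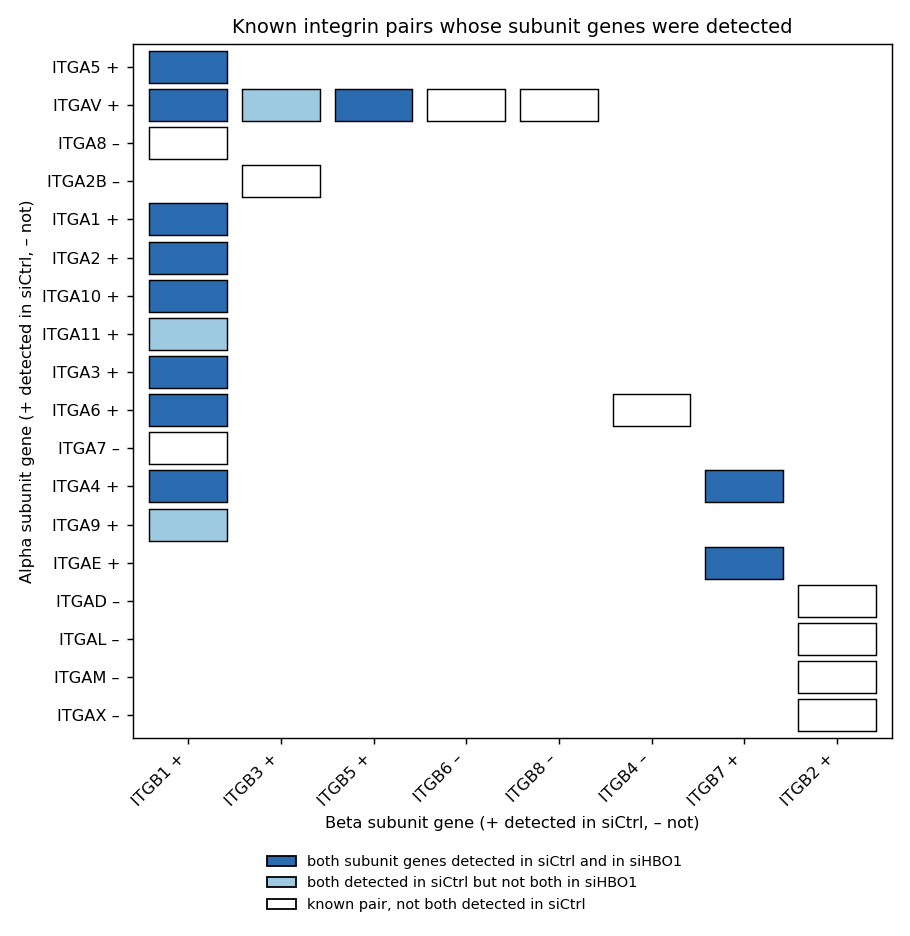
Known integrin pairs by alpha subunit gene (vertical axis) and beta subunit gene (horizontal axis), with filled cells where both genes were detected on all 3 arrays of a group. Of 24 known pairs 14 are filled for siCtrl, ITGB1 holds most of the filled cells, and the ITGB2, ITGB4, ITGB6 and ITGB8 columns are empty.

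ITGB2, the beta subunit of leukocyte integrins, was detected by both of its probes on all 6 arrays, while none of its alpha partners was detected on any array at a detection p under 0.01. Its brighter probe had log2 values of 9.29, 9.06 and 9.10 on siCtrl 1 to 3 and 9.35, 9.07 and 8.80 on siHBO1 1 to 3, with overlapping groups. The partner genes ITGAL, ITGAD and ITGAX had no array with a detection p under 0.05, and ITGAM passed that level on 4 of 6 arrays. ITGAE and ITGB7, which form a pair known from T cells within epithelia, were both detected, ITGAE at 10.25, 10.62 and 10.67 on siCtrl 1 to 3. Of 12 leukocyte markers, CD14 and CD68 were detected in siCtrl, and PTPRC, CD2, CD3D, CD3E, MS4A1, CD52, CORO1A, FCGR3A, LCP2 and LYZ were not. The summed normalised intensity of that marker list ran from 2094 to 2874 on siCtrl and from 2060 to 2428 on siHBO1 arrays. Of 5 platelet markers, GP1BA and PPBP were detected, ITGA2B, the platelet partner of ITGB3, was not, and 0 of 6 endothelial markers were. COL1A1 and COL1A2 were the 2 detected among 8 fibroblast markers.

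Among laminin chains, LAMA2, LAMA5, LAMB1, LAMB2, LAMB3 and LAMC1 were detected in siCtrl. LAMA5 and LAMC1 are chains of the laminins of most adult basement membranes, and LAMB3 belongs to the laminin of epithelial anchoring structures. LAMA1, LAMA4 and LAMB4 were detected on 0 arrays at a detection p under 0.01. Of 11 known trimers analysed here, 4 were complete in siCtrl: LAMA2 or LAMA5 with LAMB1 or LAMB2 and with LAMC1. The count was 6 in siHBO1, the additional trimers being those of LAMA2 or LAMA5 with LAMC3, whose detection p on siCtrl 3 was 0.0117. At a detection p under 0.05 it was 6 in both groups, so the difference goes with the 0.01 limit.

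The comparison of siHBO1 with siCtrl asks which of these transcripts differed after HBO1 siRNA. Of the 58 member probes, 35 entered the test, 26 of integrins and 9 of laminins, because 3 or more of the 6 arrays had them at a detection p under 0.05. In limma, an adjusted p under 0.05 was reached by 0 member probes that were higher and 0 that were lower, and among all 20744 probes tested the share called was 0% in either direction. At an unadjusted p under 0.05 there were 3 member probes (8.57%), 2 higher and 1 lower, against 3.73% of all probes, 1.73% higher and 2.01% lower. Groups did not overlap for 2 member probes that were higher and 3 that were lower in siHBO1, against 5.43% and 4.55% of all probes. No member probe differed by over 1.5-fold, a size reached by 1.56% of all probes. The median log2 change was -0.04 over the 26 integrin probes and -0.01 over the 9 laminin probes, beside 0.00 over all probes, and changes ran from -0.46 to 0.41. The count of 3 rests on single arrays: leaving out siCtrl 2 gave 0, leaving out siCtrl 3 or siHBO1 3 gave 1 in each case, and leaving out siHBO1 2 gave 6. Over all probes tested the count moved too, from 774 to 523, 343, 988 and 2000 in these fits. By brightest probe, the share of all genes was 2.15%, 1.57%, 5.06% and 8.33%, against 3.39% with all arrays.

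**Figure D2:**
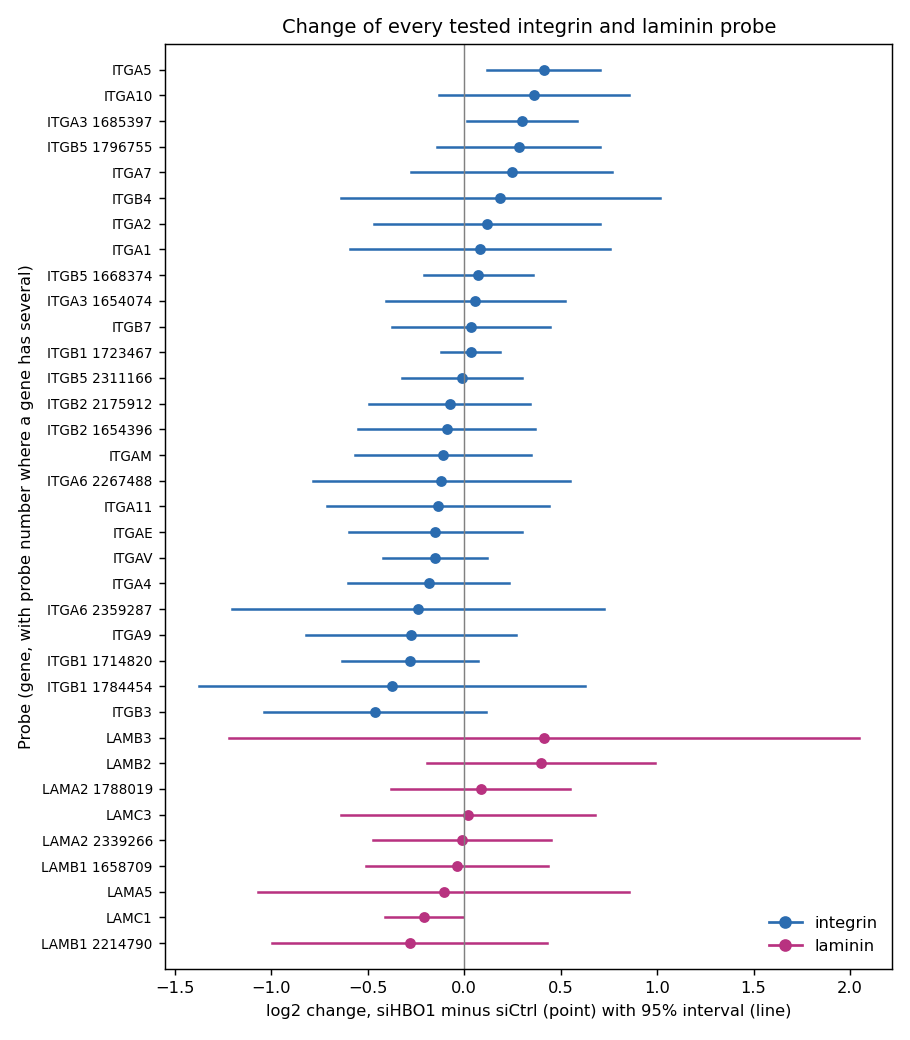
Log2 change of each of the 35 tested member probes (horizontal axis, siHBO1 minus siCtrl) with its 95% interval from limma, integrins in blue and laminins in purple. The intervals of ITGA5, of 1 ITGA3 probe and of LAMC1 lie on one side of 0, and LAMB3 has the widest interval.

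ITGA5, the alpha subunit of the main fibronectin receptor, had the smallest p of the members. Its log2 values were 10.52, 10.33 and 10.37 on siCtrl 1 to 3 and 10.89, 10.72 and 10.85 on siHBO1 1 to 3. Each siHBO1 value exceeded each siCtrl value, and arrays of a group differed little, with SDs of 0.10 and 0.09 (n = 3 each). Its log2 change of 0.41 (SE 0.13, 95% interval 0.12 to 0.71), 1.33-fold, came with a limma adjusted p of 0.999, and did not pass the test. Its value ran from 0.34 to 0.47 over the alternatives, with an adjusted p of 0.341 to 1.00.

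ITGB1, the partner of ITGA5, had log2 values of 13.94, 13.86 and 13.92 on siCtrl and 13.94, 13.97 and 13.92 on siHBO1 arrays by its brightest probe. These groups overlapped, and the change was 0.03 (SE 0.07, 95% interval -0.12 to 0.19, limma adjusted p 0.999), or 0.19 under median scaling. Whether a signal this bright still follows the transcript in proportion was not tested. Probes of other ITGB1 accessions gave lower values, -0.28 (SE 0.16) for one with 13.60, 13.22 and 13.42 on siCtrl and 13.33, 12.79 and 13.27 on siHBO1 arrays. A dimmer probe gave -0.38 (SE 0.44) and spanned 3.37-fold between the siHBO1 arrays. The 3 probes therefore differed in sign, and 1 more ITGB1 probe was detected on 0 arrays.

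ITGAV, the subunit shared by receptors of vitronectin and of latent TGF-beta, had 11.61, 11.51 and 11.58 on siCtrl and 11.39, 11.29 and 11.57 on siHBO1 arrays. The third siHBO1 array lay within the siCtrl range, and the change was -0.15 (SE 0.12, 95% interval -0.42 to 0.12), or -0.09 without siHBO1 2 and -0.23 without siHBO1 3. ITGB5, which binds vitronectin together with ITGAV, had changes of 0.07, -0.01 and 0.28 by its 3 tested probes. ITGB3, the beta subunit that binds fibrinogen and vitronectin, had 5.89, 6.001 and 6.60 on siCtrl and 5.87, 5.87 and 5.35 on siHBO1 arrays. Its siHBO1 values lay below all siCtrl values, with 5.87 and 5.89 as the nearest values. The change was -0.46 (SE 0.25, 95% interval -1.04 to 0.11, limma adjusted p 0.999), and -0.16 without background correction, since the probe was close to background. Without siCtrl 3 it was -0.25 and without siHBO1 3 it was -0.29.

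Among the collagen receptors, ITGA10, a partner of ITGB1 known from cartilage, had 6.71, 6.29 and 6.30 on siCtrl and 6.87, 7.03 and 6.49 on siHBO1 arrays. The groups overlapped, and the change was 0.36 (SE 0.22, 95% interval -0.13 to 0.86, limma adjusted p 0.999), or 0.16 without background correction. ITGA1, ITGA2 and ITGA11 had changes of 0.08, 0.12 and -0.14, each smaller than its SE of 0.30, 0.26 and 0.25.

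Of the laminin receptors, ITGA3 had 12.38, 11.93 and 12.13 on siCtrl and 12.46, 12.39 and 12.50 on siHBO1 arrays by its brighter probe. The groups touched without overlap, at 12.38 and 12.39, and the change was 0.30 (SE 0.13, 95% interval 0.02 to 0.59, limma adjusted p 0.999). It was 0.20 without siCtrl 2. The other ITGA3 probe gave 0.06 (SE 0.20). ITGA6, the laminin receptor subunit shared by ITGB1 and ITGB4, had 10.22, 9.57 and 9.48 on siCtrl and 9.39, 10.53 and 8.63 on siHBO1 arrays. The siHBO1 arrays alone spanned 3.72-fold, and the change of -0.24 (SE 0.42) was within that spread. A dimmer ITGA6 probe gave -0.12. ITGA7, a laminin receptor subunit of muscle, was at 0.25 (SE 0.23) and was detected on 1 of 3 siCtrl arrays at a detection p under 0.01. The 1 ITGB4 probe tested passed a detection p under 0.05 on 2 siCtrl and 1 siHBO1 arrays, and its change of 0.19 (SE 0.36) came to 0.01 without siCtrl 3, 0.42 without siHBO1 2 and 0.39 without siHBO1 3.

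The remaining integrins tested are known mainly from leukocytes or as receptors of several ligands. ITGA9, which binds tenascin and VCAM1, had 6.09, 5.89 and 5.89 on siCtrl and 5.36, 6.16 and 5.52 on siHBO1 arrays. The second siHBO1 array was the highest of all 6, and the change was -0.28 (SE 0.24, 95% interval -0.82 to 0.27), or -0.08 without background correction. It was -0.12 without siHBO1 1 and -0.51 without siHBO1 2, where the unadjusted limma p was 0.031 and the adjusted p 0.453. ITGA4, which also binds VCAM1, was lower on every siHBO1 array (6.87, 6.87 and 6.91) than on siCtrl arrays (6.92, 6.96 and 7.32), with a change of -0.18 (SE 0.18). ITGAE, ITGB7, ITGAM and both ITGB2 probes had changes between -0.15 and 0.04.

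LAMC1, the gamma chain of most laminins, had the smallest p among laminin genes. Its log2 values were 13.39, 13.39 and 13.29 on siCtrl 1 to 3 and 13.15, 13.27 and 13.03 on siHBO1 1 to 3. All 3 siHBO1 arrays lay below the siCtrl arrays, with 13.27 and 13.29 as the nearest values. On the log2 scale the difference was -0.21 (SE 0.09, 95% interval -0.41 to -0.004), 1.15-fold lower, with a limma adjusted p of 0.999.

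The beta chains differed among themselves. LAMB2 had 5.78, 6.45 and 6.37 on siCtrl and 6.19, 6.86 and 6.75 on siHBO1 arrays, a change of 0.40 (SE 0.26, 95% interval -0.19 to 0.99, limma adjusted p 0.999) that was 0.16 without background correction, 0.19 without siCtrl 1 and 0.61 without siHBO1 1. Both first arrays were the lowest of their groups, and the groups overlapped. LAMB1 had 10.09, 10.01 and 10.39 on siCtrl and 9.90, 10.56 and 9.93 on siHBO1 arrays by its brighter probe. Here too the groups overlapped, with a change of -0.03 (SE 0.21), and the other LAMB1 probe gave -0.28 (SE 0.31). LAMA2, an alpha chain of muscle and nerve basement membranes, was at 0.09 and -0.01 by its 2 probes (SE 0.20 each), and LAMC3 at 0.02 (SE 0.29).

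LAMB3 and LAMA5 differed more between arrays of the same group than between the group means. LAMB3 had log2 values of 11.07, 8.87 and 8.62 on siCtrl 1 to 3 and of 11.18, 9.90 and 8.72 on siHBO1 1 to 3. These are values of 1 of its 3 probes, as the others had a detection p under 0.05 on 0 arrays. The first array was the highest and the third the lowest in both groups, spanning 5.44-fold within siCtrl and 5.50-fold within siHBO1. LAMA5 had 11.48, 10.15 and 10.05 on siCtrl and 11.19, 10.31 and 9.87 on siHBO1 arrays, in the same order, with spans of 2.70-fold and 2.49-fold. Group means of LAMB3 were 9.52 ± 1.35 and 9.94 ± 1.23 (SD, n = 3 each), and its log2 change was 0.41 (SE 0.72, 95% interval -1.22 to 2.05, limma adjusted p 0.999). That of LAMA5 was -0.11 (SE 0.42, 95% interval -1.07 to 0.85, limma adjusted p 0.999). Both changes turned with single arrays. Leaving out siCtrl 1 gave 1.19 for LAMB3 and 0.36 for LAMA5, leaving out siHBO1 3 gave 1.03 and 0.19, and leaving out siHBO1 1 gave -0.21 and -0.47. LAMC1, the gamma chain of the LAMA5 trimers complete in both groups, spanned 1.08-fold within siCtrl and 1.18-fold within siHBO1.

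**Figure D3:**
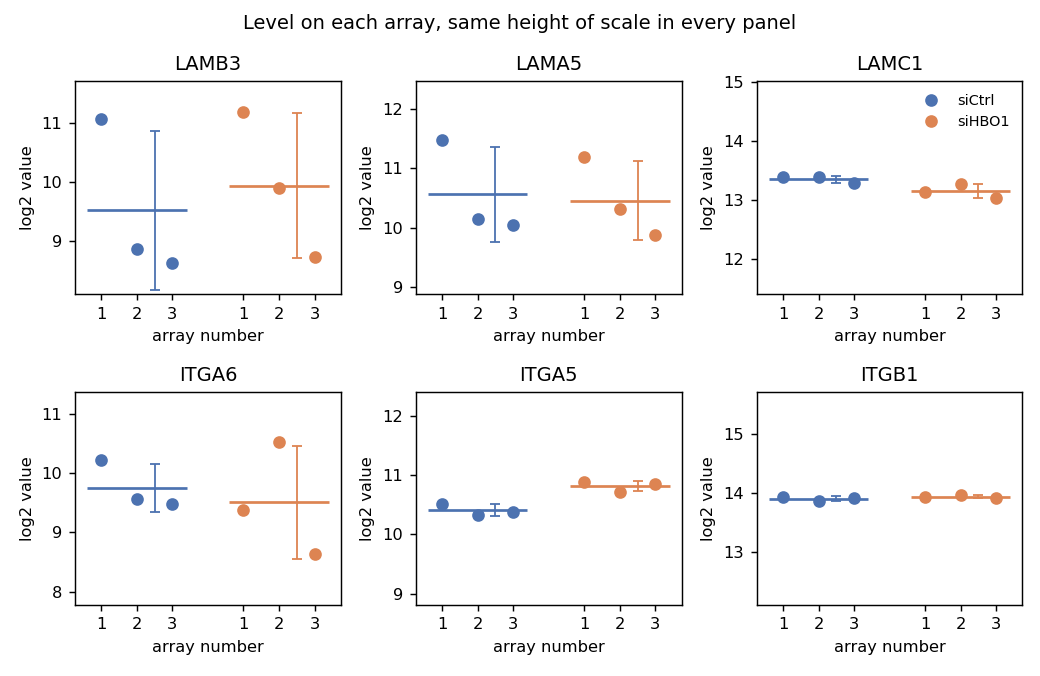
Log2 value on each array (points) of 6 member probes, siCtrl in blue and siHBO1 in orange, with group means as horizontal lines and error bars of 1 SD (n = 3), every panel spanning the same number of log2 units. LAMB3 and LAMA5 are highest on the first array of both groups, ITGA6 is highest on siHBO1 2, and LAMC1, ITGA5 and ITGB1 vary little within a group.

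The residual SD within groups, a measure of spread that does not use the siRNA contrast, was 1.29 for LAMB3, above that of 99.8% of the 20744 probes tested. It was 0.74 for LAMA5 (98.1%), 0.73 for the brighter ITGA6 probe (98.0%) and 0.74 for the dimmest of the 3 tested ITGB1 probes (98.1%). The median was 0.25 over integrin, 0.36 over laminin and 0.24 over all tested probes. At the other end, the brightest ITGB1 probe had 0.04, LAMC1 0.09 and ITGA5 0.10. LAMA5 and LAMC1, chains of the same trimers, thus lay near opposite ends. Their probes also differ in level, with siCtrl and siHBO1 means of 10.56 and 10.45 for LAMA5 and 13.36 and 13.15 for LAMC1. The ITGB1 probe was at 13.91 and 13.94. Whether signal near the top of the scale narrows the spread was not tested, so a small SD need not mean a steady transcript.

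**Figure D4:**
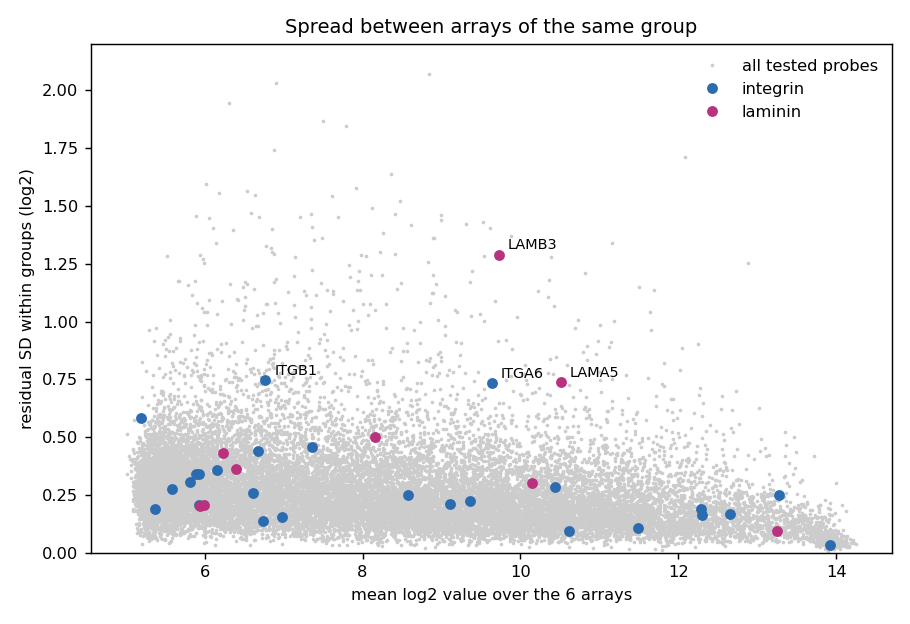
Residual SD within groups (vertical axis, log2) against the mean log2 value over the 6 arrays (horizontal axis) for all 20744 tested probes (grey), integrin probes (blue) and laminin probes (purple). LAMB3 stands at 1.29, and LAMA5, 1 ITGA6 probe and 1 ITGB1 probe stand between 0.73 and 0.75.

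In both groups the first array exceeded the third by over 2-fold for 2 member probes, those of LAMB3 and LAMA5, against 1.30% of all probes tested, or 269 probes. This rule was set after the values were seen. Ranked by the smaller of the 2 differences, LAMB3 (2.44 and 2.46) stood at rank 15 and LAMA5 (1.43 and 1.32) at rank 142 of 20744. Rank 1 was held by the cytokine gene IL6, with 11.17, 7.69 and 7.16 on siCtrl and 10.68, 9.50 and 6.87 on siHBO1 arrays, and rank 2 by IL1A, with 9.73, 6.90 and 6.11 and then 9.44, 8.57 and 6.01. The order of the arrays was the same for these 4 genes in each group. KAT7 itself did not follow it, being lowest on the first array of each group. What sets the first arrays apart was not tested, and the labels name no batch.

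The promoter bases of these chains are shown because LAMB3 and LAMA5 differed widely between arrays, in the same order, and LAMC1 differed little. LAMC1 was also higher on array 1 than on array 3, by 0.10 in siCtrl and 0.11 in siHBO1 (log2). Its signal was near the top of the scale, so whether its transcript moved with the others was not tested. The sequences are the 250 bases before the RefSeq start of each gene in GRCh38.p14, on the strand of the gene and written 5′ to 3′. They lie at chr1:209652426-209652675 (minus strand) for LAMB3, chr20:62367313-62367562 (minus strand) for LAMA5 and chr1:183023170-183023419 (plus strand) for LAMC1. Capitals mark matches to the NF-kB consensus and to the GC box GGGCGG on either strand.
LAMB3: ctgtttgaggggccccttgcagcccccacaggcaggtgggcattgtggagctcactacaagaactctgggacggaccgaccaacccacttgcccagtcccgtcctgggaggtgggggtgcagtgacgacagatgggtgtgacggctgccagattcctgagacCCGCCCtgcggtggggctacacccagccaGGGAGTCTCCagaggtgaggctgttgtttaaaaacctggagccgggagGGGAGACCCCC
LAMA5: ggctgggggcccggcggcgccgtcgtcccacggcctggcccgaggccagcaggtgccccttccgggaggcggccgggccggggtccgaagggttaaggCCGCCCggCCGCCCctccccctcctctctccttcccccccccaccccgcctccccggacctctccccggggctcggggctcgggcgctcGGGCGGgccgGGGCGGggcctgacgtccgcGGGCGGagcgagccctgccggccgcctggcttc
LAMC1: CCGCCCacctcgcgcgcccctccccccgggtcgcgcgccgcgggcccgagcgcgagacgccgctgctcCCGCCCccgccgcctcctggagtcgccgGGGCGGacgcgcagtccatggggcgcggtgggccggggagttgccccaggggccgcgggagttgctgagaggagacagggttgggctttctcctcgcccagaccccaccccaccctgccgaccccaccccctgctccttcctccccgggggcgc
The LAMB3 window held 3 matches to the NF-kB consensus, 2 of them overlapping at its end, and 1 GC box, with 64% G and C. The LAMA5 window held 0 consensus matches and 5 GC boxes, with 82.8% G and C, and that of LAMC1 held 0 and 3, with 79.6%. Over all 35116 windows of this length, 5.21% held the NF-kB consensus and 42.6% a GC box, and the median G and C content was 58%. These windows were not reduced to 1 per gene or limited to genes on the array, whereas each member gene was counted once. Of the 37 member genes, 26 had a window, and 5 of these held the NF-kB consensus: LAMB3, ITGA5, ITGA1, ITGA10 and ITGA11. The AP-1 motif TGANTCA was found in 0 of the 26 windows and in 6.57% of all, and TATAAA in 1, that of ITGA6, and in 10.7% of all. A match is a string of letters, not a bound site, and these motifs were chosen with the values known.

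Genes that act with integrins and laminins were counted by the brightest measured probe of each. Of 33 measured adaptors that link integrins to actin or signal from them, 0 passed the test in either direction, as for 0% of all 11917 genes, and 1 had an unadjusted p under 0.05, against 3.39% of all genes. Their median log2 change was 0.08, with 24 positive and 9 negative values, beside 0.01 over all 11917 genes, 6288 positive and 5629 negative. ACTN1, which cross-links actin at adhesions, was at 0.33 (SE 0.11), the paxillin relative LPXN at 0.31 (SE 0.15) and SHARPIN, which restrains integrin activation, at 0.28 (SE 0.16, and 0.16 without background correction).

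Of 20 measured surface partners, such as tetraspanins and syndecans, 0 passed and 0 had an unadjusted p under 0.05 (median -0.01). The caveolar protein gene CAV1 was at -0.15 (SE 0.10), the integrin-binding protease gene ADAM15 at 0.15 (SE 0.10) and BSG, a matrix metalloproteinase inducer, at 0.32 (SE 0.22). The values of CAV1 and BSG rest on single arrays. CAV1 was at -0.04 without siHBO1 2 and -0.26 without siHBO1 3, and BSG at 0.10 without siHBO1 1, 0.20 without siCtrl 3, 0.48 without siHBO1 2 and 0.50 without siCtrl 1. Median scaling gave -0.06 for CAV1 and 0.08 for ADAM15. Other probes of ADAM15 gave 0.42 (SE 0.17, unadjusted limma p 0.039), 0.23 and 0.08, so the count of 0 surface partners holds for the brightest probes. Of 25 measured matrix ligands and related genes, 0 passed and 0 had an unadjusted p under 0.05 (median 0.06, 16 positive). The matrix protein gene TNC was at 0.42 (SE 0.21, another probe 0.20), and the collagen VI genes COL6A3 and COL6A1 were at 0.40 (SE 0.22) and 0.38 (SE 0.22). Without background correction COL6A1 came to 0.11 and COL6A3 to 0.24. Without siHBO1 2 TNC came to 0.19 and COL6A3 to 0.19, and without siHBO1 3 COL6A1 came to 0.19. The smallest limma adjusted p in each of these lists was 0.999.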

How the data were processed

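Total RNA of 3 siCtrl and 3 siHBO1 SKOV-3 samples was read on Illumina bead arrays. Per the file headers, the deposited intensity is the average bead signal of a probe, on a linear scale, and the deposited detection p-value is given per probe and array. The authors' processed table holds log2 values, as its range shows, and served as an alternative. Per the submitters' processing notes the tools were GenomeStudio and lumi, without version or role, and no background or normalization method is given in the sources used here. Of 47314 probes, 30110 have 1 gene symbol in the platform table, 8 several and 17196 none. All 30110 symbols were kept as listed there, with 0 changed through the reference gene table.

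Background correction and quantile normalization used neqc in limma 3.58.1 (R 4.3.3, statmod 1.5.0, offset 16). Probes that 3 or more of the 6 arrays detected at a p under 0.05, 20744 in all, were compared with lmFit and eBayes (intensity trend, two-sided, no covariate), with Benjamini-Hochberg adjustment over all of them and a threshold of 0.05. Probes of the same gene that passed this filter were fitted separately and not merged, because the members are probes. A gene's value is that of its brightest tested probe. The number of arrays limits the precision: the 95% interval of a probe's log2 change had a median half-width of 0.46. On 5 simulated data sets of this comparison with 20744 probes, 200 probes were changed, with noise drawn independently per probe. Each set mixed changes of 1.5-fold, 2-fold, 3-fold and 4-fold. The share of changed probes called was 8.4% at 1.5-fold, 37.6% at 2-fold, 74% at 3-fold and 84.4% at 4-fold. These shares hold for that mixture, since the adjustment runs over all probes of a set together.

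The members, gene lists, pairs and tests were chosen with earlier results of these data known. Named with change and SE are KAT7, ITGB1, ITGAV, ITGA5, ITGB4, LAMA5, LAMB1 and LAMC1, the 6 integrin and 4 laminin genes with the smallest p and the 3 genes with the smallest p in each other list, and the remaining members are given by value. No array was a copy of another (0 identical columns).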

Additional observations from a re-analysis of the deposited data

How the results depend on the processing

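In all 16 alternatives 0 member probes, 0 adaptors, 0 surface partners and 0 matrix ligands passed limma's adjusted p of 0.05. The 14 member genes followed had the reported sign in 211 of 220 values, with adjusted p from 0.341 to 1.00. Members whose groups did not overlap could not change sign when an array was left out, so their constant sign shows nothing about stability. The 9 values that turned were those of laminins, 1 of them LAMA5 with array weights (0.324) and the others with 1 array left out. Over those fits LAMB3 ran from -0.209 to 1.185, LAMA5 from -0.472 to 0.356, LAMB1 from -0.2499 to 0.0814 and LAMA2 from -0.067 to 0.222. LAMB3 was negative without siHBO1 1 or siCtrl 3, LAMA5 positive without siCtrl 1 or siHBO1 3, LAMB1 positive without siCtrl 3, siHBO1 1 or siHBO1 3, and LAMA2 negative without siHBO1 3. The count of member probes at an unadjusted p under 0.05, 3 as reported, was 1 with median scaling and 1 without an intensity trend. With an array left out it ran from 0 to 6. Over all probes tested the count was 688 with median scaling, 896 without an intensity trend and 343 to 2000 with an array left out. The cause was not tested. KAT7 ran from -1.34 to -0.36. Median log2 changes ran from -0.10 to 0.05 for integrin and from -0.11 to 0.11 for laminin probes. Between 22 and 23 member genes were detected in siCtrl under the alternatives. Array numbers were not treated as pairs, because the labels name nothing shared. Deviations from the group mean correlated between groups at 0.558, 0.0217 and 0.463 for arrays 1, 2 and 3. Between arrays of different number the correlations ran from -0.55 to 0.31, and those of arrays 1 and 3 lay above this range. Whether arrays of the same number share something was not tested. With the number as a replicate block, 0 members passed and 4 member probes had an unadjusted p under 0.05, beside 1409 of all 20744 probes. The additional member was an ITGB1 probe. LAMB3 then had an unadjusted limma p of 0.0575 and an adjusted p of 0.73. In that fit 2 adaptors (ACTN1 and FHL2), 2 surface partners (BSG and PLAUR) and 1 matrix ligand (TNC) had an unadjusted p under 0.05, against 6.59% of all genes, and 4 of all 20744 probes passed. Array weights gave BSG and PLAUR as well, against 6.95%, and passed 1 probe. With 1 array left out these counts ran from 0 to 3 adaptors, 0 to 2 surface partners and 0 to 1 matrix ligands, against 1.57% to 8.33% of all genes. Slide as a block was not run, as no slide is named. Dim probes limit the fold changes of ITGB3, ITGB4, ITGA9, ITGA10 and LAMB2.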

Other observations

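Apart from IL6 and IL1A, the named probes that exceeded LAMB3 in the difference of the first from the third array in both groups include those of ESM1, an endothelial proteoglycan (3.49 in siCtrl and 3.01 in siHBO1, log2), the calcium sensor gene NCALD (3.94 and 3.14), the stress transcription factor genes MAFF (2.73 and 2.73) and ATF3 (2.50 and 3.00), and STC2, a secreted glycoprotein (2.69 and 2.97). These genes were chosen after their values were seen and are given as values. Probes of CYP4B1, MAL2, MYEOV and FAM83A exceeded LAMB3 in both groups as well. LAMB3 is the single member among the first 15 probes of that ranking. The members at its other end were ITGA11 (-0.08 and -0.94) and ITGA1 (-0.58 and -0.94), both collagen receptor subunits that were lower on the first array than on the third. ITGAE (-0.42 and -0.65) and LAMB2 (-0.59 and -0.57) were also lower on the first array in both groups.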
